A study of Mus musculus with 18 samples.

Results

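Alb-R26Met liver tumors with higher Met were compared with those with lower Met, 5 of each out of the 12 tumors in the series. After Siglece and Gm26917, a pair of genes that take a large and uneven share of the libraries, were removed, each sample was rescaled to a sum of 1000000, so that a value is a share of that sum. The members were chosen by their rescaled Met value: of the 12 tumors, 11 were ranked by it. The 5 highest are called Met-high here, the 5 lowest Met-low, and 1 tumor lies between them. Tumor 2 was left out before ranking, and Siglece alone held 82.9% of its deposited total. Met chose the groups, so its values are a description and were not tested.

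Bulk poly-A RNA-seq was performed on 12 advanced tumors and 6 livers without tumors, 18 samples from 17 mice. All were male Alb-R26Met mice, F1 of C57 and 129Sv, in which Cre under the Albumin promoter switches on a conditional mouse-human chimeric Met transgene at the Rosa26 locus. The livers carry the same alleles, so no wild-type tissue is part of the comparison. Tumors were not treated. The Met-high mice were 69, 72, 49, 67 and 72 weeks old (tumors 1, 6, 11, 10 and 7), the Met-low mice 59, 63, 68, 52 and 55 weeks (tumors 3, 4, 9, 5 and 8), and the livers came from mice of 52 to 71 weeks. The 10 tumors compared came from 10 mice, and the tumor between the groups shares its mouse with tumor 11. Values of single tumors are given in that order throughout, which is the order of falling Met within each group.

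Met is the receptor tyrosine kinase for hepatocyte growth factor (HGF). HGF is secreted by non-parenchymal cells as an inactive precursor, is cleaved by serine proteases, and makes Met recruit adaptors such as Gab1 and Grb2, which pass the signal to the RAS-ERK and PI3K-AKT pathways. In the liver it drives hepatocyte growth and survival during regeneration, and it can act as an oncogene in hepatocellular carcinoma (HCC).

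Met (chr6:17463349-17573980, RefSeq GRCm38.p6) had rescaled values of 344, 314, 272, 267 and 258 in the Met-high tumors. It had 243, 237, 199, 194 and 172 in the Met-low tumors and 254 in the tumor between. The means were 291 ± 36.5 (SD, n = 5) and 209 ± 30.3 (SD, n = 5), a ratio of 1.39. The ranking is therefore a graded one: the lowest Met-high tumor stood 1.02 times above the tumor between, which stood 1.04 times above the highest Met-low tumor. All 11 tumors lay above the livers, which ranged from 26.8 to 77.7 (50.4 ± 17.5, SD, n = 6). Mean Met was 5.77 times that of livers in Met-high and 4.14 times in Met-low tumors. The deposited values do not separate transgene from mouse Met transcripts, so which of them differs between tumors was not tested.

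**Figure D1:**
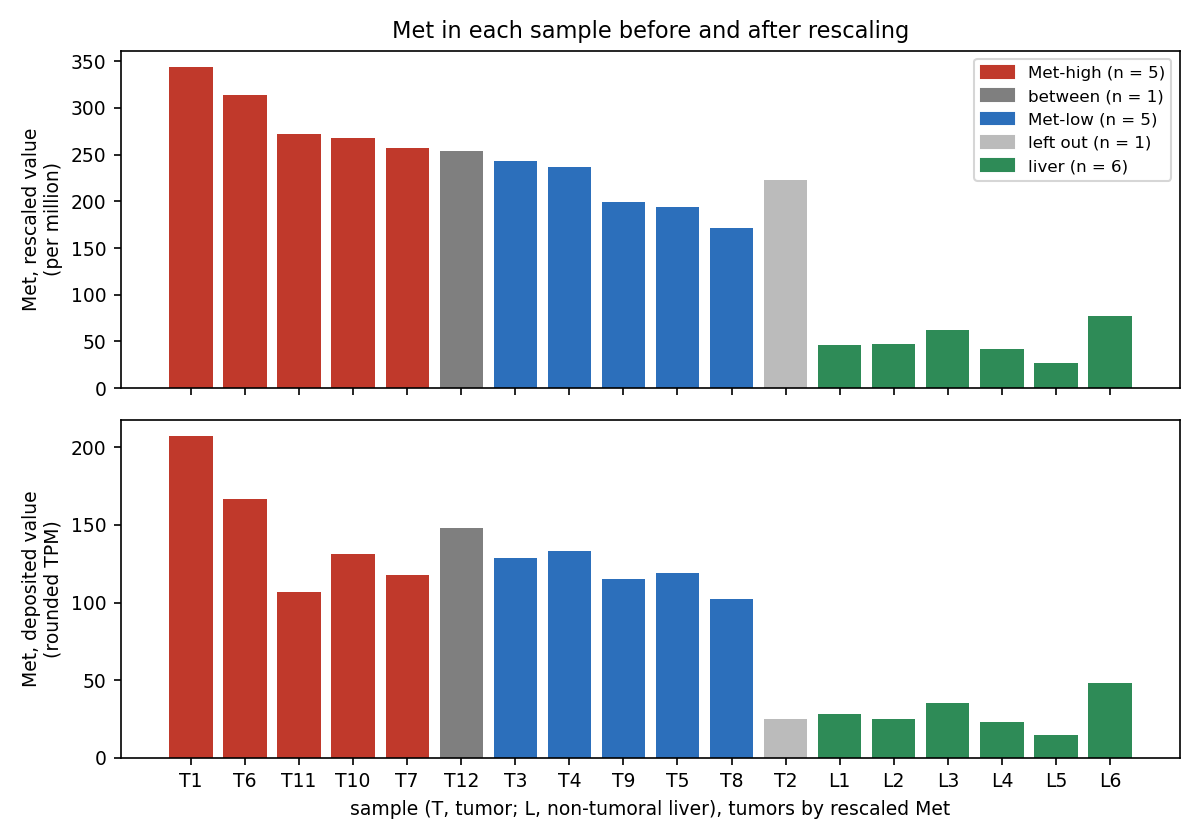
Met in 18 samples (T, tumor; L, liver), rescaled without Siglece and Gm26917 (top, per 1000000) and as deposited (bottom, rounded TPM); each bar is 1 sample. Rescaled Met falls from 344 to 172 over the 11 ranked tumors, whereas the deposited values of the Met-high (107 to 207) and Met-low (102 to 133) tumors overlap.

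The order depends on the rescaling. As deposited, Met was 207, 167, 107, 131 and 118 in Met-high and 129, 133, 115, 119 and 102 in Met-low tumors. Ranking these values would keep 3 of the 5 tumors on each side, move 1 Met-low tumor to the high side and 2 Met-high tumors to the low side. The factor that rescales a sample was 1.66, 1.88, 2.55, 2.04 and 2.18 in Met-high tumors and 1.88, 1.78, 1.73, 1.63 and 1.68 in Met-low tumors. Siglece took 37.5% ± 10.98 (SD, n = 5) of the deposited total of Met-high and 27.4% ± 4.82 of Met-low tumors (exact permutation test, two-sided, p = 0.0952, adjusted p = 0.667 over 7 measures). Within tag E19 alone (3 against 4 tumors) the difference was 15 percentage points (exact permutation p = 0.0286), and without tumor 1 it was 13.6 (exact permutation p = 0.0238). Its part in the results below was not tested beyond the alternatives given. Age was 65.8 ± 9.63 (SD, n = 5) against 59.4 ± 6.35 weeks (exact permutation p = 0.262), or 10.6 weeks apart without tumor 11 (exact permutation p = 0.0238). The tag E20 in the sample names, whose meaning is not given in the sources used here, was carried by 2 Met-high and 1 Met-low tumors (Fisher's exact test, p = 1). The share of Gm26917, genes above 0, the deposited total and the share of 8 mitochondrial genes gave exact permutation p-values between 0.460 and 0.952. By tag, genes above 0 were 13270 to 13819 in the ranked E20 tumors and 11508 to 12394 in the E19 tumors, without overlap. Alb, the marker of hepatocytes, was between 46796 and 90064 in the 10 tumors (35685 to 52497 in livers), so hepatocyte RNA was abundant in all of them.

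With limma on log2(value + 1), 0 of 11969 genes differed between the groups at an adjusted p under 0.05 (0% called, smallest adjusted p = 0.62). At an unadjusted p under 0.05, 456 genes (3.81%) differed, 227 higher (1.9%) and 229 lower (1.91%) in Met-high tumors. A threshold of 0.05 alone passes a share of that size. In 32 genes every Met-high tumor was above every Met-low tumor (0.267%), and in 42 below (0.351%). The 95% interval of a log2 fold change, unadjusted, reached 0.57 (1.48-fold) to either side in the median gene. In a gene with an interval of that width, a smaller observed difference would not reach an unadjusted p under 0.05 with these tumors. Larger ones could also go uncalled, since a call had to pass the adjustment over all genes. No gene below is therefore called changed. Values, folds on the log2(value + 1) scale and unadjusted p of limma are given as a description, and each adjusted p is at least 0.62.

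**Figure D2:**
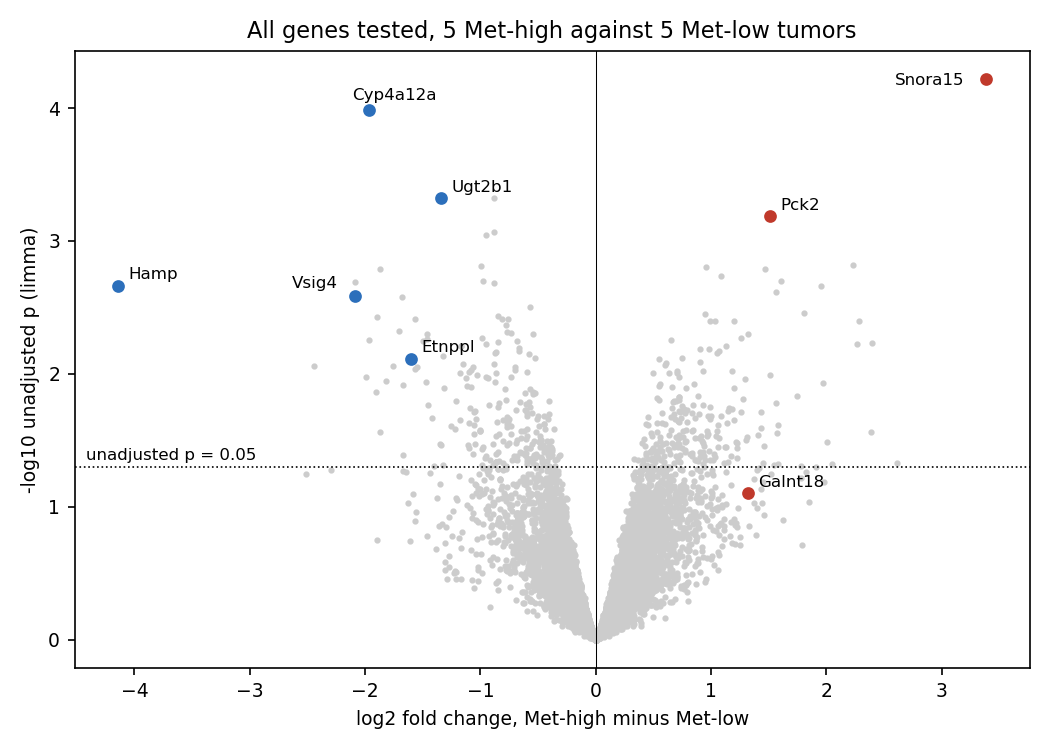
Each gray point is 1 of 11969 genes, by log2 fold change (Met-high minus Met-low) and -log10 of the unadjusted limma p; the dotted line is p = 0.05. The 8 named genes are colored red where higher and blue where lower in Met-high tumors, with Snora15 at 3.39 and Hamp at -4.14.

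Of the 8 genes that differed by at least 1 on the log2 scale without overlap, at a mean log2 value of at least 2, 5 were lower in Met-high tumors and 3 were higher. The lower ones are genes of differentiated liver: Hamp, Cyp4a12a, Ugt2b1 and Etnppl of hepatocytes and Vsig4 of resident macrophages. Hamp encodes hepcidin, the hepatocyte hormone that blocks iron export by binding ferroportin. It was 106, 158, 96.7, 2.04 and 292 in Met-high tumors and 519, 2201, 391, 1636 and 3459 in Met-low tumors. Every Met-high tumor lay below every Met-low one, and tumor 10 was almost without Hamp. The tumor between had 941, and livers had 5274 to 10210, above all 11 tumors. The log2 fold change was -4.14 (95% interval -6.47 to -1.82, p = 0.00217, adjusted p = 0.997).

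The Hamp gene lies at chr7:30942368-30944029 of GRCm38.p6, on the minus strand. The 250 bases before its start (chr7:30944030-30944279, RefSeq) are shown because genes of the BMP pathway, which drives Hamp, are described next. Capitals mark GGCGCC, the core of the BMP-responsive element, and TTCTTGGAA, a match to the STAT motif TTCNNNGAA through which interleukin-6 acts:

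Hamp promoter: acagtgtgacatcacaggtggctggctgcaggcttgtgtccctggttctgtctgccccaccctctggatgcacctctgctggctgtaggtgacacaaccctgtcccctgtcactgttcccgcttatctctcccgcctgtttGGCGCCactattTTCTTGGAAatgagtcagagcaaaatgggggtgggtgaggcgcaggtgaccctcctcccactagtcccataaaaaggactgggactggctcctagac

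The matches begin 109 and 97 bases before the start and do not overlap. On either strand, GGCGCC occurs in 9.59% and TTCNNNGAA in 7.02% of 32851 RefSeq promoters of that length, so these letters are a description of the sequence and no evidence of binding.

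Genes of iron handling were looked up after the values of Hamp were seen. Slc40a1, ferroportin itself, was 54.8, 28.2, 20.4, 32.7 and 48.0 in Met-high and 56.4, 71.3, 69.2, 74.9 and 75.7 in Met-low tumors, without overlap (log2 fold change -0.98, p = 0.00199). Tfrc, the transferrin receptor, was 22.9 to 53.2 against 11.4 to 26.9 (0.72, p = 0.0230). Id1, a target of BMP signaling, was 7.64 to 21.8 against 13.2 to 46.4 (-1.03, p = 0.0101), and groups overlapped. The BMP target and inhibitor Smad7 was 7.64 to 15.3 against 11.3 to 28.6 (-0.56, p = 0.0569). Bmp6, the iron-sensing ligand of liver endothelium, was 0 to 4.37 against 1.63 to 5.35 (-0.82, p = 0.0734). Id1, Smad7 and Bmp6 had lower means in Met-high tumors, as Hamp did, but unlike Hamp the groups overlapped in each of them. No p of these genes or of Hamp passed the adjustment over all genes. Bmp6 was at most 5.35 in the tumors compared, and its fold change turned to 0.25 with the ranking as deposited. Whether the BMP pathway as a whole differed between the groups was not tested.

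Cyp4a12a, a male-specific fatty acid hydroxylase, was 23.3, 20.7, 28, 12.2 and 41.5 in Met-high tumors. In Met-low tumors it was 58.3, 194, 100, 78.1 and 82.4. The groups did not overlap, and the tumor between (132) lay with the Met-low ones (log2 fold change -1.96, 95% interval -2.72 to -1.21, p = 0.000104, adjusted p = 0.62). Ugt2b1, which conjugates steroids and bile acids with glucuronic acid, was 34.9, 33.8, 17.8, 18.4 and 43.7 against 52.7, 107, 77.8, 57 and 79.1 (-1.34, 95% interval -1.96 to -0.72, p = 0.000478). Etnppl, the lyase of phosphoethanolamine, was 1.66, 1.88, 2.55, 0 and 2.18 against 3.76, 21.4, 3.46, 3.26 and 10.1 (-1.60, p = 0.00767). As deposited the Met-high values of Etnppl were 0 or 1, close to the rounding of the file. Liver 1, a sample without tumor, also had low Cyp4a12a (1.64, median of livers 330) and Ugt2b1 (32.7, median 164), so such values were not seen in tumors alone.

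**Figure D3:**
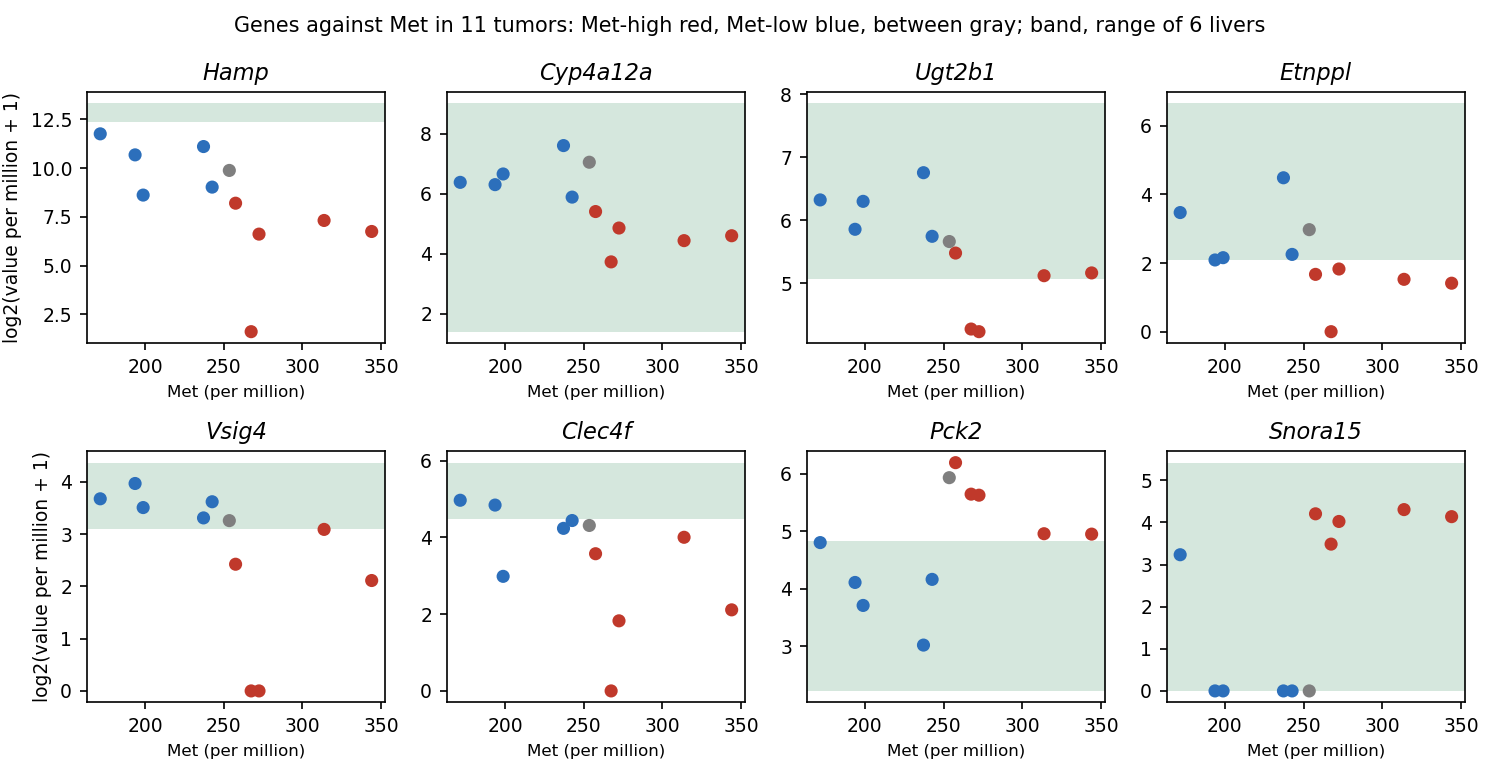
Level of 8 genes (log2 of value per 1000000 + 1) against rescaled Met in 11 tumors; red points are Met-high, blue Met-low, gray the tumor between, and the green band is the range of the 6 livers. Hamp, Cyp4a12a, Ugt2b1, Etnppl and Vsig4 are lower and Pck2 and Snora15 higher in all 5 Met-high tumors, with no overlap, while Clec4f overlaps.

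The higher ones were Snora15, Pck2 and Galnt18. Pck2, the mitochondrial phosphoenolpyruvate carboxykinase, was 29.9, 30.1, 48.4, 49 and 72 in Met-high tumors. It was 16.9, 7.13, 12.1, 16.3 and 26.9 in Met-low tumors, 60.0 in the tumor between and 3.69 to 27.5 in livers. All Met-high tumors exceeded all Met-low tumors and all livers (log2 fold change 1.51, 95% interval 0.79 to 2.23, p = 0.000647), although as deposited both groups touched at 16. Galnt18, a glycosyltransferase that starts O-glycans, was deposited as 1 or 2 in 9 of the 10 tumors and as 31 in tumor 10. Its lack of overlap comes from the rescaling factor (1.32, p = 0.0786).

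Snora15 is a small nucleolar RNA, of the class that guides pseudouridylation of ribosomal RNA. It lies inside Cct6a, a chaperonin gene, at chr5:129794546-129794676 on the plus strand of GRCm38 (GENCODE M21), where 2 annotated exons of Cct6a overlap it. Its sequence is shown because a read of it cannot be assigned to one gene with certainty:

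Snora15: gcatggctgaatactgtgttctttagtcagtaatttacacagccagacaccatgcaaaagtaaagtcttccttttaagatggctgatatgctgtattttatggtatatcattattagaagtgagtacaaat

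Snora15 was 16.6, 18.8, 15.3, 10.2 and 17.5 in Met-high tumors. It was listed at 0 in 4 Met-low tumors and in the tumor between, and at 8.41 in tumor 8, while livers ranged from 0 to 41.8. As deposited both groups touched at 5. The log2 fold change was 3.39 (95% interval 2.16 to 4.62, p = 6.03e-05, adjusted p = 0.62). It was the only gene called under any alternative, with sample quality weights (adjusted p = 0.0214). The host Cct6a was 50.7 to 91.9 against 71.3 to 96.8 (-0.19, p = 0.335). Among 19 small nucleolar RNA genes tested, Snora15 included, 16 had a higher mean log2 value in Met-high tumors (56.2% of all genes) and 4 an unadjusted p under 0.05 (3.81% of all genes), with a median of 0.69. Snora81 was 39.5 to 93.9 against 3.26 to 48.8 (2.23, p = 0.00151). These genes were counted after Snora15 was seen. Poly-A RNA was sequenced, and how much of such short RNA a library retained was not tested.

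The pathway of Met itself was described next, from lists of 37 gene groups that hold 569 tested genes. Of these, 46 (8.08%) had an unadjusted p under 0.05, 25 higher and 21 lower, and 0 were called. The 8.08% compares with 3.81% of all genes tested, and the lists were chosen with earlier results of these data known. Over all genes tested, 56.2% had a fold change above 0, and the median was 0.04. Genes named in the lists for an unadjusted p under 0.05 were chosen after their values were seen.

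**Figure D4:**
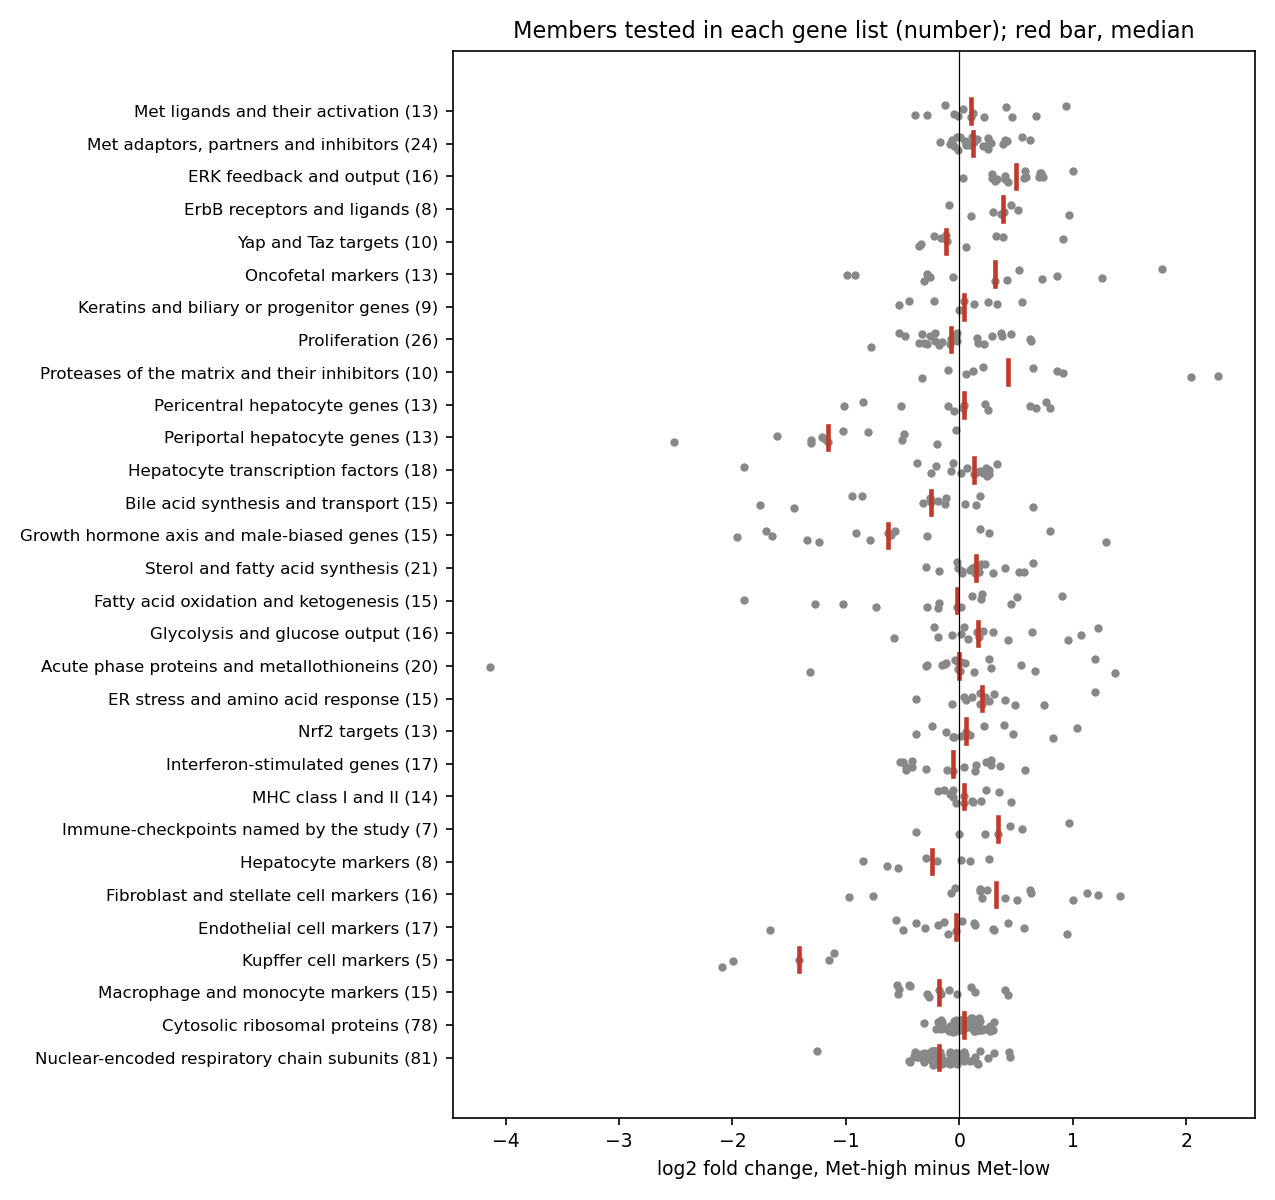
Log2 fold change (Met-high minus Met-low) of each tested member (gray) in the 30 lists with 5 or more members, numbers in brackets, with a red bar at the median. Kupffer cell markers (-1.42) and periportal genes (-1.16) lie furthest below 0, and all 16 members of ERK feedback and output lie above it.

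Among the ligands and their activation, 8 of 13 tested genes were higher and 5 lower, with a median of 0.10. Hgf, the ligand, was low in all tumors, at 3.32, 5.64, 2.55, 2.04 and 4.37 against 1.88, 3.57, 3.46, 4.88 and 11.8 (log2 fold change -0.28, 95% interval -1.10 to 0.53, p = 0.466). In livers it was 5.35 to 14.7. Hgfac, which cleaves pro-HGF, was 705, 665, 423, 282 and 668 against 561, 355, 398, 430 and 511 (0.22, 95% interval -0.36 to 0.80, p = 0.424). The groups overlapped for both. Plaur, the receptor of urokinase, was the only member with a p under 0.05, at 3.32 to 18.4 against 1.73 to 6.51 (0.94, p = 0.0499). Among 24 adaptors, partners and inhibitors of Met, 18 were higher and 6 lower, with a median of 0.12, and none had a p under 0.05. Gab1, the docking adaptor of Met, was 6.12 to 11.6 against 4.88 to 16.8 (0.28, 95% interval -0.42 to 0.98, p = 0.400). With the values as deposited the medians of both lists were below 0 (-0.13 and -0.10).

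Genes that ERK induces, among them its feedback inhibitors, all had a higher mean log2 value in Met-high tumors (16 of 16 tested, median 0.50, range 0.04 to 1.0). Of these, 3 had an unadjusted p under 0.05, against 1.9% of all genes in that direction, and 0 were called. Spry4, a Sprouty inhibitor of RAS-ERK signaling, was 21.6, 11.3, 10.2, 10.2 and 8.73 in Met-high and 5.64, 7.13, 5.19, 6.51 and 10.1 in Met-low tumors (0.72, p = 0.0148). After rescaling, only tumor 8 reached into the range of the Met-high ones. As deposited, tumors 4 and 5 had the same value as tumors 11 and 7, so their separation comes from the rescaling factor. Epha2, an ephrin receptor, was 36.6, 35.7, 28, 22.5 and 13.1 against 15, 17.8, 10.4, 13 and 20.2 (0.74, p = 0.0215). Fos, an immediate early transcription factor, was 8.73 to 22.5 against 3.46 to 13 (0.71, p = 0.0451).

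The 4 members with the highest level were Egr1, Dusp6, Ccnd1 and Jun, and in each the groups overlapped. Egr1, an early growth response factor, was 128, 216, 211, 77.6 and 111 against 77.1, 209, 45.0, 27.7 and 74.0 (1.0, p = 0.0529). Dusp6, the phosphatase that removes phosphate from ERK, was 61.1 to 133 against 48.1 to 116 (0.43, p = 0.153). Ccnd1 (cyclin D1) was 38.2 to 111 against 30.3 to 86.3 (0.58, p = 0.112), and Jun 40.7 to 54.6 against 26.3 to 48.8 (0.29, p = 0.149). With any 1 tumor left out the median of the list was 0.34 to 0.59. Within tag E19 alone it was 0.49, again with 16 of 16 above 0. It was 0.27 with the values as deposited, where 15 were above 0 and the median of all genes was -0.15, and 0.15 with the ranking as deposited, where 13 were.

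Of the ErbB family, whose receptors also signal to ERK, 7 of 8 tested genes were higher (median 0.38, 0.21 to 0.54 with any 1 tumor left out). Within tag E19 alone 5 of 8 were higher, and with the ranking as deposited also 5 of 8 (median 0.11). Btc (betacellulin, a ligand) was 4.99, 7.51, 10.2, 18.4 and 6.55 against 1.88, 1.78, 5.19, 6.51 and 6.73 (0.97, p = 0.0281). Egfr was 137 to 310 against 100 to 252, and the groups overlapped (0.51, 95% interval -0.11 to 1.14, p = 0.0996).

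Markers of Kupffer cells, the resident macrophages of the liver, had lower means in Met-high tumors. All 5 tested had an unadjusted p under 0.05 (1.91% of all genes in that direction), a median of -1.42 and no call. Clec4f, a lectin made by Kupffer cells, was 3.32, 15, 2.55, 0 and 10.9 in Met-high and 20.7, 17.8, 6.92, 27.7 and 30.3 in Met-low tumors (-1.99, 95% interval -3.43 to -0.56, p = 0.0106). It was 21.3 to 60.7 in livers. Tumors 10, 11 and 1 were the lowest, and tumor 9 was the Met-low tumor within the Met-high range.

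Vsig4, a complement receptor, was 3.32, 7.51, 0, 0 and 4.37 against 11.3, 8.92, 10.4, 14.7 and 11.8, without overlap, and 7.61 to 19.6 in livers (-2.09, 95% interval -3.30 to -0.89, p = 0.00259). Cd5l, which macrophages secrete, was 8.31, 24.4, 2.55, 20.4 and 24.0 against 26.3, 21.4, 27.7, 79.8 and 42.1 (-1.42, p = 0.0216). Timd4, which binds apoptotic cells, was deposited as 1 in all 5 Met-low tumors and in tumor 6 and as 0 in the others (-1.15, p = 0.00839). Folr2, a folate receptor, was deposited as 0 to 2 against 1 to 3 (-1.10, p = 0.0343). Marco, the sixth marker, was above 0 in too few tumors to be tested.

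The summed level of the 6 markers was 5.09 to 54.5 in Met-high, 50.1 to 135 in Met-low tumors and 68.5 to 168 in livers, so the Met-low tumors lay near the range of livers. In bulk samples fewer Kupffer cells and less RNA per cell cannot be told apart. The median was -2.03 to -1.07 with any 1 tumor left out and -0.34 with the ranking as deposited, where 4 of the markers were tested. Of 15 general macrophage and monocyte markers, 11 were lower and 4 higher, with a median of -0.18 that was -0.55 without tumor 10 and -0.55 to 0.02 with any 1 tumor left out. Only Mrc1, the mannose receptor, had a p under 0.05, at 5.09 to 13.2 against 11.4 to 16.9 (-0.53, p = 0.0428). Their sum was 150 to 778 in Met-high and 194 to 562 in Met-low tumors, so the groups overlapped, and the highest sum was that of tumor 10. Ptprc, which marks all leukocytes, had a log2 fold change of 0.07, and of -0.28 without tumor 10. No T lymphocyte or natural killer cell marker passed the filter on low values.

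**Figure D5:**
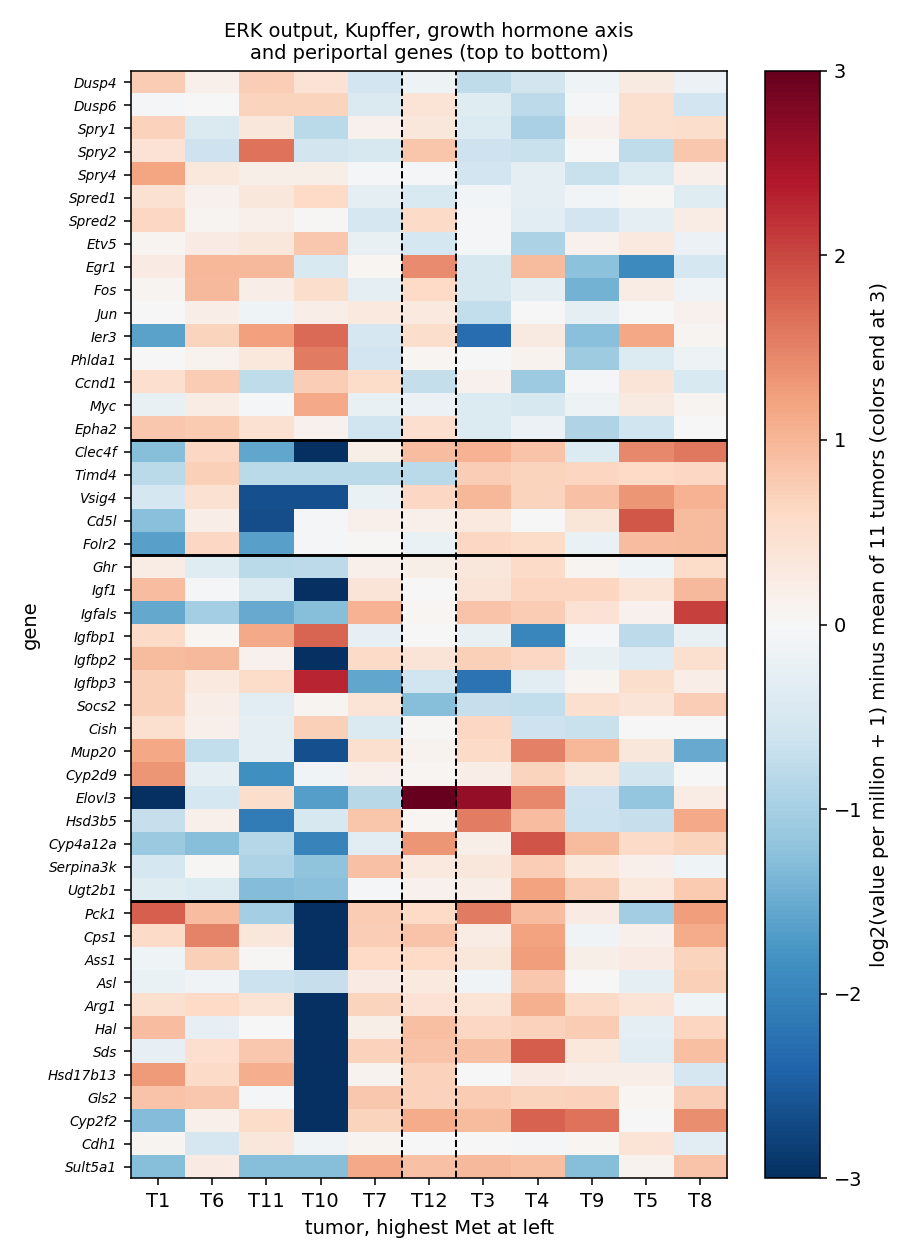
Level of tested genes of 4 lists (rows, from top to bottom ERK output, Kupffer markers, growth hormone axis, periportal genes) in 11 tumors from highest Met at left to lowest at right, as log2(value per 1000000 + 1) minus the gene's mean over the tumors. Dashed lines part Met-high, the tumor between and Met-low; the 5 Kupffer rows are mostly blue at left and red at right, and tumor 10 alone is dark blue in most periportal rows.

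Growth hormone acts on hepatocytes through Ghr and STAT5, raises Igf1 and Igfals, and its pulses in males maintain male-biased genes. Of 15 genes of this axis, 11 were lower and 4 higher in Met-high tumors (median -0.63), 4 with a p under 0.05 lower and 1 higher (1.91% and 1.9% of all genes). Igfals, which holds IGF1 in the circulation, was 4.99, 7.51, 5.09, 6.12 and 34.9 against 30.1, 28.5, 22.5, 17.9 and 70.7, and only tumor 7 reached the Met-low range (-1.70, p = 0.00475). Ghr, the receptor, was 84.0 to 173 against 137 to 223 (-0.60, p = 0.0310). Igf1 was 319, 160, 125, 10.2 and 220 against 220, 264, 263, 225 and 330, and the groups overlapped (-1.23, p = 0.108). The 4 higher members were Igfbp1, Igfbp3 (0.80, p = 0.240), Cish (0.26, p = 0.437) and Socs2 (0.18, p = 0.579). Whether growth hormone signaling differed between the groups was not tested.

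Igfbp1, which binds IGF1 and is repressed by insulin, was 1233, 860, 1813, 2770 and 698 against 709, 212, 811, 482 and 713 (1.29, p = 0.0110). It was only 28.6 to 167 in livers. The highest of the list were Mup20, a pheromone carrier, at 684 to 9646 against 1511 to 12303 (-0.79, p = 0.276), and Serpina3k, a protease inhibitor, at 1319 to 5653 against 2779 to 5079 (-0.63, p = 0.103). The median of the growth hormone list was -0.94 to -0.41 with any 1 tumor left out and -0.12 with the ranking as deposited.

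Of 15 genes of bile acid synthesis and transport, 11 were lower and 4 higher (median -0.25). Baat, which conjugates bile acids with taurine, was 46.5, 31.9, 40.7, 34.7 and 61.1 against 65.8, 103, 86.5, 63.5 and 97.6, without overlap (-0.95, p = 0.000896). Slco1a1, an uptake transporter, was 2.04 to 10.9 against 6.92 to 52.2 (-1.76, p = 0.00875), and Cyp7b1, an oxysterol hydroxylase, 4.99 to 26.3 against 13.8 to 67.3 (-1.46, p = 0.0173). The median of this list was 0.22 with the ranking as deposited.

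Periportal genes, such as those of the urea cycle, all had a lower mean log2 value in Met-high tumors (13 of 13, median -1.16), but 0 had a p under 0.05, and 1 tumor decided the size. Tumor 10 had 6.12 of Cps1 and 18.4 of Arg1, both of the urea cycle, whereas the other Met-high tumors had at least 883 and 779. It had 36.7 of Ass1, another urea cycle enzyme, against at least 773. Pck1, the cytosolic counterpart of Pck2, was 4.08 in tumor 10 and at least 163 in the other Met-high tumors. Without tumor 10 the median was -0.19, with 8 lower and 5 higher. The median of the pericentral list was 0.04 with and -0.89 without tumor 10, whose sum of these genes was 23720, against 866 to 3235 in Met-low tumors.

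In metabolism, Pfkl, the liver form of phosphofructokinase, was 96.4, 50.7, 61.1, 106 and 74.2 against 30.1, 33.9, 39.8, 55.4 and 35.3 (0.96, p = 0.00156). Hk2, a hexokinase that tumors often express, was 2.18 to 10.2 against 0 to 3.57 (1.22, p = 0.0359), and Fbp1, which runs the step of Pfkl backwards, 222 to 434 against 381 to 695 (-0.57, p = 0.0363). Over the list of glycolysis and glucose output the median was 0.16, with 12 of 16 higher. It was 0.035 without tumor 10, with 10 higher, and -0.07 with the values as deposited, with 6 higher. Asns (asparagine synthetase) was 41.5 to 114 against 7.13 to 60.2 (1.19, p = 0.0222) and Fgf21, a hormone of nutrient stress, 13.1 to 84.0 against 13.5 to 26 (0.90, p = 0.0422). Elovl6, a fatty acid elongase, was 35.6 to 59.8 against 23.2 to 48.8 (0.52, p = 0.0409). Nuclear-encoded subunits of the respiratory chain were lower in 66 of 81 (median -0.18), whereas 56.2% of all genes were higher. Of the 81, 1 was higher and 2 were lower with a p under 0.05 (1.9% and 1.91% of all genes). With the ranking as deposited 51 were lower (median -0.05). Over the alternatives described below, the slope on Met aside, the median ran from -0.40 to 0.21. Ribosomal protein genes had a median of 0.04.

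Among stromal genes, Timp1, an inhibitor of matrix proteases, was 1.66, 20.7, 10.2, 14.3 and 2.18 against 0, 0, 0, 1.63 and 3.36 (2.28, p = 0.00402). The groups overlapped.

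Loxl2, a collagen crosslinker, was 3.32 to 14.3 against 1.78 to 5.05 (0.86, p = 0.0303). The collagens Col1a2 (11.6 to 63.3 against 3.57 to 22.8, 1.23, p = 0.0431) and Col6a3 (7.64 to 15 against 1.78 to 10.1, 1.13, p = 0.00614) were higher, whereas Dcn, decorin, was 19.9 to 35.7 against 32.0 to 92.5 (-0.76, p = 0.0231). Of 16 fibroblast and stellate markers 12 were higher (median 0.32, 0.16 to 0.54 with any 1 tumor left out). With the ranking as deposited 7 were higher and 9 lower (median -0.04). Flt1, a receptor of VEGF, was 33.2, 26.3, 25.5, 40.8 and 13.1 against 13.2, 12.5, 10.4, 14.7 and 15.1 (0.95, p = 0.00356), with only tumor 7 in the Met-low range, while 17 endothelial markers had a median of -0.03.

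Hemoglobin genes also had higher means in Met-high tumors. Of 4 red blood cell genes tested, 3 were higher with a p under 0.05, against 1.9% of all genes in that direction (median 1.59). Hba-a2 was 9.97, 15, 38.2, 75.5 and 15.3 against 1.88, 12.5, 3.46, 11.4 and 0 (2.39, p = 0.00583), Hba-a1 was 2.18 to 13.2 against 0 to 7.13 (1.58, p = 0.0241), and Hbb-bs was 2.18 to 7.51 against 0 to 1.78, without overlap (1.60, p = 0.00201), although as deposited both groups touched at 1. The summed level of the 5 markers was 49.9 to 127 in Met-high and 24.2 to 60.6 in Met-low tumors. Alas2, the erythroid enzyme of heme synthesis, had the highest level among them and the fold change of opposite sign (-0.23, means 25.5 against 28.6). The part of blood left in the tissue in the other results was not tested.

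Lcn2, an acute phase protein that binds siderophores, was 879, 2672, 1558, 1370 and 738 against 359, 374, 557, 1377 and 560 (1.20, p = 0.0129), and Orm3 was 0 to 1.88 against 1.63 to 6.73 (-1.32, p = 0.0128). Orm1 (mean 923 against 551, 0.66, p = 0.0902) and Orm2 (mean 43.0 against 11.4, 1.38, p = 0.0618) went the other way from Orm3. The acute phase list as a whole had a median of 0.00. Cd24a, a surface protein of progenitor cells, was 3.32 to 12.7 against 1.68 to 4.88 (1.26, p = 0.00536). Among 7 tested immune-checkpoints that the study named, Icosl (the ligand of ICOS) was 2.55 to 16.9 against 1.78 to 5.05 (0.97, p = 0.0292). Lgals9 (galectin-9) was 248, 199, 260, 274 and 236 against 314, 300, 287, 404 and 288, without overlap (-0.38, p = 0.0363). Jchain, of plasma cells, was 1.88 to 4.99 against 0 to 3.26 (0.99, p = 0.0448). The deposited values of Jchain and Orm3 lie close to the rounding of the file. The same holds for the lower values of Timp1, Loxl2, Hk2, Cd24a and Icosl.

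Medians of the following lists were between -0.24 and 0.31. They were -0.11 for Yap and Taz targets, 0.31 for oncofetal markers (-0.04 to 0.49 with any 1 tumor left out), 0.04 for keratins and progenitor genes, -0.07 for proliferation and 0.13 for hepatocyte transcription factors. They were 0.14 for sterol and fatty acid synthesis, -0.02 for fatty acid oxidation, 0.20 for ER stress and the amino acid response and 0.06 for Nrf2 targets. Interferon-stimulated genes had -0.06, MHC genes 0.05 and hepatocyte markers -0.24. With the ranking as deposited, medians of these lists ran from -0.50 for keratins and progenitor genes to 0.31 for fatty acid oxidation. In the keratin list 8 of 9 were then lower, and in the ER stress list 12 of 15 (median -0.43). In 26 proliferation genes, 9 were higher and 17 lower, and none had a p under 0.05.

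The genes whose order over the 11 tumors was most like that of Met were Ifnlr1 and Casp8ap2 (Spearman's rho 0.93 each) and Zfp937 and Pik3r3 (0.92 each). All 4 were deposited as 0 to 3 in every tumor, so their order is largely that of the rescaling factor, which Met shares. The genes most unlike Met had higher levels, although Tbc1d7 was deposited as only 2 to 6. Hint2, a mitochondrial hydrolase, had a rho of -0.89 and ranged from 41.5 to 77.4. Dnajc30, a mitochondrial chaperone, had -0.87, with 19.6 to 26.9, and Abhd16a and Tbc1d7 had -0.86 each. These correlations are a description over 11 tumors that share the rescaling, with no test.

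Neighbors of Met on chromosome 6 were described for their position. Of the 5 protein-coding genes on each side, 7 were tested. Their log2 fold changes lay between -0.83 (Tfec) and 0.36 (Cav1), with a median of 0.26, and 0 had a p under 0.05. Capza2, the nearest gene after Met (chr6:17637010-17666972), was 44.9 to 61.2 against 57.1 to 65.1 (-0.17, 95% interval -0.49 to 0.14, p = 0.256). Next to Rosa26, where the transgene is inserted, 4 of 6 neighbors were tested. They lay between -0.18 (Rad18) and 0.31 (Setd5), and 0 had a p under 0.05.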

How the data were processed

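Poly-A RNA of 12 tumors and 6 livers was sequenced paired end on NovaSeq X. The authors aligned reads to GRCm38 and quantified genes with Salmon 1.10.2 as TPM. The deposited values, called counts by the study, are whole numbers and no sample's total exceeds 907513, so they were used as a score, rounded TPM. TPM keep no read depth, so no counting interval is given. The table holds 28442 genes.

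Siglece and Gm26917 were removed and each sample was rescaled to 1000000. Genes with at least 1 in at least 6 of the 10 tumors were kept. Log2(value + 1) went into limma 3.58.1 (R 4.3.3) with a trended prior, Met left out, and p-values were adjusted by Benjamini-Hochberg over 11969 genes. The fit was tested on simulated data. Sample measures were tested by exact permutation over 252 splits. Named genes are up to 12 in each direction with the smallest p among those without overlap, a difference of at least 1 on the log2 scale and a mean log2 value of at least 2, the 4 highest members of some lists, the 4 genes most and least like Met, and neighbors. Other genes were chosen after their values were seen or for their role. Some list members are counted but not reported here by name. The members and lists were chosen with earlier results of these data known. Alternatives covered scaling, pseudocount, filter, covariates, group size, ranking, weights, tag and each tumor left out. Ages and mouse numbers came from the study's list of mice, and for 2 tumors, whose numbers differ from the labels, samples were matched by tumor number and tag. Python 3.11.15, scipy 1.17.1 and matplotlib 3.10.9 were used.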

Additional observations from a re-analysis of the deposited data

Results flagged for a closer look

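In groups of 5 tumors or 6 livers, 19 of 153 tested sets of values had a sample far from the others. Chance gives about 1 in 20 (7.65) for independent, normally distributed values. Some values here lie at 0 and some of the genes move together, so 19 against 7.65 is only a rough comparison. Tumor 10 was the far sample in 6 genes of the Met-high group: Galnt18 (63.3), Hamp (2.04), Etnppl (0), Ass1 (36.7), Cps1 (6.12) and Arg1 (18.4). In the same group, tumor 6 stood apart in Timd4 (1.88), tumor 1 in Spry4 (21.6), tumor 7 in Igfals (34.9) and tumor 11 in Ccnd1 (38.2) and in age (49 weeks). Among Met-low tumors, tumor 8 stood apart in Snora15 (8.41), Gab1 (16.8) and genes above 0 (13819), tumor 4 in Fbp1 (695) and tumor 5 in Lgals9 (404). Tumor 8 was the only Met-low tumor with tag E20, and all ranked E20 tumors had more genes above 0 than the E19 ones. Among livers, liver 1 stood apart in Cyp4a12a (1.64) and Ugt2b1 (32.7) and liver 5 in Clec4f (60.7). Tumor 2, which was left out before ranking, gave 82.9% of its deposited total to Siglece.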

How the results depend on the processing

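Of 27 alternatives to the fit, 2 of them chosen after seeing the data (the share of Siglece as a covariate, and the values as deposited), 26 called 0 genes. Sample quality weights called 1, Snora15 (log2 fold change 3.82). The share of genes at an unadjusted p under 0.05 ran from 2.28% to 8.53%. Against a median log2 fold change of 0.04 over all genes, it was -0.15 with the values as deposited, 0.15 with the share of Siglece as a covariate and 0.18 with tumor 2 kept. Of 1665 values of 63 named genes under these alternatives, 1648 kept their direction and remained uncalled. Many of these genes were named for their difference in these same tumors. Most alternatives also refit most of the same tumors, so a kept direction is a weak check. With the ranking as deposited, the fold changes of Mrc1 (0.27), Btc (-0.26), Cyp7b1 (0.22), Elovl6 (-0.025), Orm3 (0.012) and Bmp6 (0.25) turned. Hgf turned with weights (0.014), without tumor 8 (0.032) and with the share of Siglece (0.075), and Hgfac with the values as deposited (-0.011). With 3 against 3 tumors Cps1 (0.41), Arg1 (0.21) and Mup20 (0.11) turned, as did Mup20 in the slope on Met (0.29) and, without tumor 10, Cps1 (0.27) and Arg1 (0.069). The cause was not tested.

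With each tumor left out in turn, Met-high minus Met-low ran from 4.55 to 10.6 weeks for age and from 6.21 to 13.6 percentage points for the share of Siglece. It ran from -219 to 391.6 for genes above 0, from -9621 to 3795 for the deposited total and from -0.022 to 0.441 percentage points for the share of mitochondrial genes. Hgf ran from -0.51 to 0.03, Cps1 from -1.75 to 0.27 and Arg1 from -1.33 to 0.07. Within tag E19 the differences were 15 percentage points for the share of Siglece, -226 genes above 0, 5084 for the deposited total and -0.023 percentage points for mitochondrial genes.

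No paired analysis was possible because the groups compared are both tumors, whose replicate numbers do not repeat. The mean or correlation of tumors from 1 mouse was not run, since the 10 tumors came from 10 mice, nor was tag E20 alone, which holds 1 Met-low tumor. Rounding of the deposited values limits genes with values of 1 or 2, and 5 tumors a group limit the rest.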
